A study of Mus musculus with 6 samples.

Results

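Angiopoietin-like proteins and the triglyceride lipases they act on were followed as 8 genes: the hepatokine genes Angptl4, Angptl6 and Angptl8, the lipase genes Lpl, Lipc and Lipg, and the lipase partners Gpihbp1 and Lmf1. They were taken by gene name from a table of 25718 genes, where each name had 1 row. All 8 passed the filter on low counts, and 15957 genes of the table did so. They were selected on the genotype difference in these same counts and FPKM values, since the set was drawn up with the low level of Angptl8 in S100a16KO+/- already known, and the genotype differences of the 8 genes are given as descriptions, without p-values.

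The RNA came from primary hepatocytes of alcohol-fed mice of 2 genotypes, WT and S100a16 heterozygous knockout (S100a16KO+/-, labelled as a knockdown), with 3 libraries each. The study asks what S100A16, a calcium-binding protein, does in hepatic lipid accumulation. The mice were males of 8 to 10 weeks. In the S100a16KO+/- mice, on a C57BL/6 background, EIIa-Cre had removed floxed exons 2 and 3 from 1 copy of the gene. EIIa-Cre acts in the early embryo, so cells of these mice other than hepatocytes carried the deletion too. Both genotypes were kept on control liquid food for 5 days and then for 10 days on one whose ethanol content was 5% vol/vol, and were given 5 g/kg of ethanol by gavage 9 h ahead of collection. The labels number the libraries and do not say that each is a separate mouse, so the spread between them may be partly technical.

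Lipoprotein lipase, hepatic lipase and endothelial lipase are secreted enzymes that cut triglyceride and phospholipid from circulating lipoproteins. They need a folding factor of the endoplasmic reticulum before they leave the cell, and lipoprotein lipase needs a carrier on capillary endothelium to reach the blood. ANGPTL4 inhibits lipoprotein lipase and is known as a gene of fasting and of fatty acid sensing by PPAR receptors, whereas ANGPTL8 is known as a gene of the fed liver that rises with insulin and works through its relatives.

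The promoter of Angptl8 is shown because this gene carried the greatest genotype difference of the set. Its window of 250 bases before the RefSeq start, on the plus strand of GRCm38.p6 at chr9:21835260-21835509, is printed with the letters TGATGCAAT in capitals. These letters match TGATGNAAT, a form of the composite C/EBP-ATF element known from stress-responsive genes, and they begin 130 bases before the start.
Angptl8 promoter: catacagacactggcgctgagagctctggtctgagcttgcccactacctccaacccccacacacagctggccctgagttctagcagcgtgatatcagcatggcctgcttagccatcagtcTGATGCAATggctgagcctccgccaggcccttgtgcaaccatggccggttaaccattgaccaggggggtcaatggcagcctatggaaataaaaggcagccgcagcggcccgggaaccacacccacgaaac

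Only Fgf21, of the 3 genes whose pattern came nearest to that of Angptl8, held the same letters in its promoter window, with the match on the strand opposite to the gene and 140 bases before its start. Both stretches of 30 bases are shown with the match in capitals, that of Angptl8 at chr9:21835370-21835399 and that of Fgf21 at chr7:45615611-45615640, read on the plus strand.
Angptl8 element: gccatcagtcTGATGCAATggctgagcctc
Fgf21 element: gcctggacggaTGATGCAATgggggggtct
The search read both strands of windows from 250 bases before to 50 bases after the start, and the motif was chosen after the Angptl8 promoter had been read. Of 32851 RefSeq promoter windows of that length, 317 held TGATGNAAT, or 0.965%. RefSeq windows were at hand for 4 of the 8 genes (Angptl6, Angptl8, Lipc with 2 starts, and Lmf1), and the motif was not among the letters of the windows of Angptl6, Lipc, Lmf1, Inhbe or G0s2. The E-box CACGTG stood in 7.15% of all windows, the nuclear receptor site AGGTCA in 16.3%, the CCAAT box in 37.4% and TATAAA in 13.6%, and none of these letters were in the Angptl8 window. The second Lipc window held 2 matches to AGGTCA, both Lipc windows held CCAAT, and the Fgf21 window held CACGTG and TATAAA. A match of letters is a description of the window and not evidence of binding.

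The 6 libraries held 67658095 to 71807834 estimated counts. S100a16 itself had 1001, 1056 and 1107 counts in WT and 433, 390 and 366 in S100a16KO+/-, a log2 fold change of -1.40. WT replicate 1 and S100a16KO+/- replicate 2 stood apart from the other libraries of their groups, with scaling factors of 0.951 and 0.948 against 1.01 to 1.04 elsewhere. Log2 fold changes without both are given for Angptl6, Lpl, Lipg and Gpihbp1, and those of Angptl4, Angptl8, Lipc and Lmf1 were 0.37, -4.00, -0.02 and 0.25. The hepatocyte markers summed to 130728 to 142960 CPM, counts scaled to library size, in WT and to 130687 to 143918 CPM in S100a16KO+/-. Endothelial, macrophage and stellate cell markers were present as well, at far lower levels. Fold changes below are S100a16KO+/- over WT, as log2 values with their standard errors (SE) from an edgeR fit to the counts of all tested genes. Levels between genes are compared in FPKM, which is scaled for transcript length, and levels of 1 gene between libraries in FPKM or CPM.

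Angptl8, whose product pairs with other ANGPTL proteins to hold back lipoprotein lipase, lay at 137.2, 136.3 and 139.6 FPKM in the WT libraries and at 8.36, 8.58 and 9.07 FPKM in the S100a16KO+/- libraries. The groups lay far apart, and each kept within a narrow band. In CPM the mean was 133.6 ± 6.13 (SD, n = 3) in WT and 8.37 ± 0.421 (SD, n = 3) in S100a16KO+/-, so that 6.27% of the WT level was left, a log2 fold change of -4.00 ± 0.07 (SE). Leaving out each library in turn gave -4.03 to -3.96. The counts behind these levels were 9558, 8991 and 9101 in WT and 549, 563 and 607 in S100a16KO+/-.

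Angptl4, which inactivates lipoprotein lipase and has 7 exons at chr17:33773750-33781830 on the minus strand of mm10, went the other way by a small amount. Its levels were 19.5, 20.1 and 20.6 FPKM in WT and 26.4, 26.2 and 26.8 FPKM in S100a16KO+/-. Every S100a16KO+/- library lay above every WT library, with means of 79.7 ± 2.23 and 104.5 ± 4.25 CPM (SD, n = 3 each), 1.31-fold, and a log2 fold change of 0.39 ± 0.06 (SE). Angptl6, a hepatokine of a separate branch of the family linked to energy expenditure, was scarce at 2.52, 2.80 and 2.97 FPKM in WT and 3.745, 3.79 and 3.65 FPKM in S100a16KO+/-. Its 6 exons lie at chr9:20873808-20879727 on the minus strand. Again the groups did not overlap, and the log2 fold change was 0.42 ± 0.13 (SE). It was 0.34 without the pair of libraries that stood apart. The Angptl6 call at the adjusted threshold was lost in 5 of the 6 fits that left out 1 library, those without any one of the WT libraries or without S100a16KO+/- replicate 1 or 2, where the log2 fold change lay between 0.37 and 0.47. Of 1582 exon bases of Angptl6, 265 (16.8%) lie over exons of Shfl on the opposite strand. Shfl had 81.4 ± 3.30 CPM in WT and 45.9 ± 1.11 CPM in S100a16KO+/- (SD, n = 3 each), its log2 fold change was -0.83 ± 0.06 (SE), and the share of its reads in the Angptl6 counts was not tested.

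**Figure D1:**
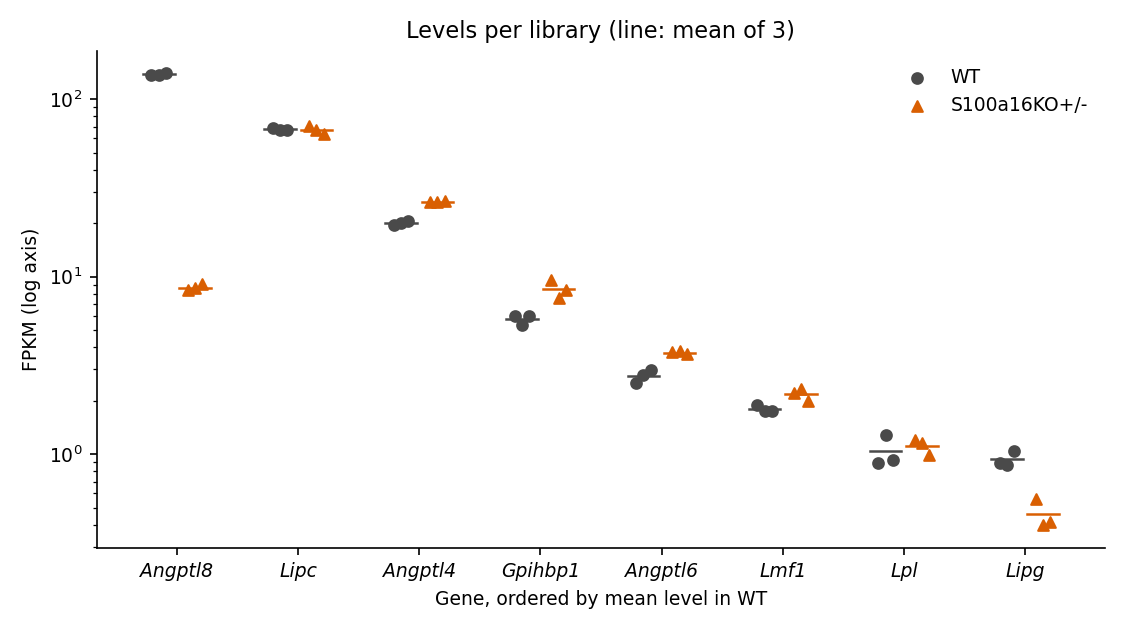
Level of each of the 8 genes in FPKM on a log10 axis, 1 point per library, with WT and S100a16KO+/- side by side and a bar at each group mean (n = 3 each). Angptl8 goes from 137.7 to 8.67 FPKM, Lipg from 0.934 to 0.458 FPKM, and the Lpl and Lipc points of the 2 genotypes overlap.

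The make-up of the angiopoietin-like transcripts therefore differed between genotypes. In the WT libraries the 3 genes summed to 159.3, 159.2 and 163.2 FPKM, of which Angptl8 made 86.2%, 85.6% and 85.5%. In the S100a16KO+/- libraries they summed to 38.5, 38.6 and 39.5 FPKM, of which Angptl8 made 21.7%, 22.3% and 23.0%. Angptl8 stood at 7.03, 6.77 and 6.77 times the FPKM of Angptl4 in WT and at 0.316, 0.328 and 0.339 times in S100a16KO+/-. The more abundant of this pair was thus Angptl8 in every WT library and Angptl4 in every S100a16KO+/- library.

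Angptl8, with 4 exons, lies at chr9:21835510-21837347 on the plus strand of mm10, inside an intron of 5109 bases of Dock6, a guanine nucleotide exchange factor gene on the minus strand. None of the 865 exon bases of Angptl8 are shared with Dock6, and the nearest Dock6 exons are 1868 and 1403 bases away. Dock6 stood at 22.1, 23.2 and 20.2 CPM in WT and at 15.1, 16.7 and 15.4 CPM in S100a16KO+/-. Its S100a16KO+/- libraries were the lower ones without overlap, with a log2 fold change of -0.47 ± 0.09 (SE) and an adjusted p of 9.65e-04 by edgeR. Both the host gene and the nested gene were lower in S100a16KO+/-, with a mean of 15.7 CPM left of 21.8 CPM for Dock6.

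**Figure D2:**
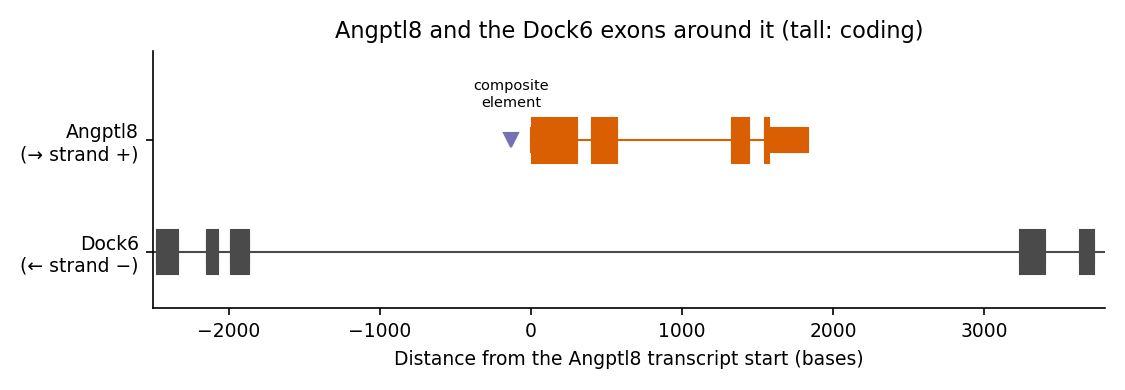
Map of the Angptl8 locus to scale, in bases from the Angptl8 start, with the exons of Angptl8 and of the Dock6 gene around it on their strands tall boxes for coding sequence, and a triangle (composite element) at the TGATGNAAT match. The match lies 130 bases before the start, and no Dock6 exon overlaps an Angptl8 exon.

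The 3 lipases differed among themselves. Lipc, with 9 exons at chr9:70798128-70952226 on the minus strand, encodes hepatic lipase, the lipase made by hepatocytes, and was the most abundant of them at 69.0, 67.3 and 66.9 FPKM in WT and 70.1, 67.2 and 63.9 FPKM in S100a16KO+/-. The genotypes overlapped, and the log2 fold change was -0.02 ± 0.06 (SE), between -0.07 and 0.04 when each library was left out in turn. Lpl, with 10 exons at chr8:68880491-68906934 on the plus strand, encodes lipoprotein lipase, made mainly in fat and muscle, and was low at 0.893, 1.29 and 0.925 FPKM in WT and 1.195, 1.157 and 0.982 FPKM in S100a16KO+/-. WT replicate 2 was the highest of all 6 libraries, the groups overlapped, and the log2 fold change was 0.10 ± 0.13 (SE). It was 0.26 without WT replicate 2 and -0.04 without WT replicate 1 and S100a16KO+/- replicate 2, so its direction was not settled. Lipc stood at 77.3, 52.3 and 72.3 times the FPKM of Lpl in WT and at 58.7, 58.1 and 65.0 times in S100a16KO+/-.

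Lipg encodes endothelial lipase, which acts mainly on phospholipid of high-density lipoprotein, and was the lipase that differed. Its counts were 341, 313 and 369 in WT and 202, 143 and 152 in S100a16KO+/-, which is 0.894, 0.869 and 1.04 against 0.561, 0.397 and 0.416 FPKM. All WT libraries lay above all S100a16KO+/- libraries. The means were 4.94 ± 0.474 and 2.42 ± 0.435 CPM (SD, n = 3 each), which left 48.9% of the WT level, at a log2 fold change of -1.03 ± 0.18 (SE). These are shallow counts, since about 4 counts make up 1 sequenced fragment, and the lowest library rests on about 36 fragments of Lipg. The 2-fold limit was missed without WT replicate 3 (-0.97), without S100a16KO+/- replicate 2 (-0.98) and without S100a16KO+/- replicate 3 (-0.94), and also without the pair of libraries that stood apart (-0.97).

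Gpihbp1, with 4 exons at chr15:75596628-75598213 on the plus strand, encodes the endothelial carrier that takes lipoprotein lipase to the capillary lumen. It had 5.96, 5.37 and 5.96 FPKM in WT and 9.63, 7.57 and 8.445 FPKM in S100a16KO+/-. The groups did not overlap, with means of 16.6 ± 1.56 and 24.3 ± 2.27 CPM (SD, n = 3 each), 1.47-fold, and a log2 fold change of 0.56 ± 0.09 (SE). It was 0.66 without the pair of libraries that stood apart. Lmf1, with 11 exons at chr17:25579085-25662826 on the plus strand, encodes the lipase maturation factor of the endoplasmic reticulum and had 1.899, 1.744 and 1.751 FPKM in WT against 2.20, 2.34 and 1.99 FPKM in S100a16KO+/-. The S100a16KO+/- libraries were higher without overlap in FPKM, but in CPM, with 30.5, 25.7 and 26.2 against 32.8, 37.6 and 29.1, the ranges overlapped. The Lmf1 log2 fold change was 0.27 ± 0.09 (SE), between 0.17 and 0.36 when each library was left out in turn. With all libraries it did not pass the adjusted threshold in the edgeR fit, and it passed with DESeq2, with no filter on low counts, with genes of mean FPKM of at least 1 alone and with counts divided by 4. It also passed without WT replicate 1, without S100a16KO+/- replicate 3 and without both libraries that stood apart.

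**Figure D3:**
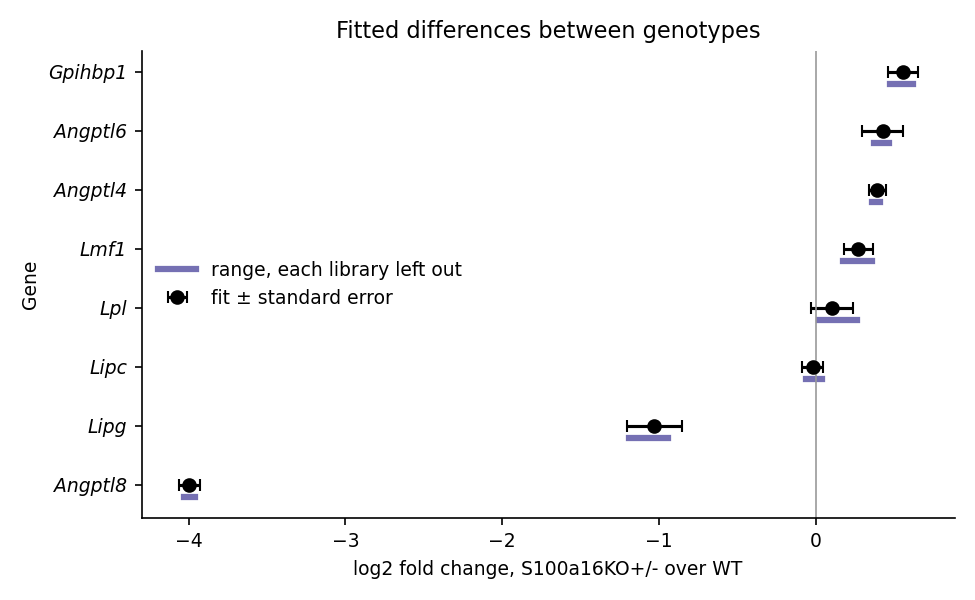
Log2 fold change of S100a16KO+/- over WT for the 8 genes, with bars of 1 SE from the edgeR fit and, under each point, the range over fits that left out 1 library. Angptl8 lies at -4.00 and Lipg at -1.03, and the other 6 genes lie between -0.02 and 0.56.

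At an adjusted p under 0.05, 5 of the 8 genes were called, with Angptl4, Angptl6 and Gpihbp1 higher and Angptl8 and Lipg lower. Of all tested genes 22.8% were called, with 11.6% higher and 11.2% lower, and since the set was chosen with this comparison known, nothing is read from the count. The criterion of the study, an unadjusted p under 0.05 with a change of at least 2-fold, took Angptl8 and Lipg, both lower, against 4.52% of all tested genes, 2.9% in the higher and 1.62% in the lower direction. The CPM ranges of 5 of the 8 genes did not overlap between genotypes, against 37.9% of all tested genes. The median log2 fold change was 0.19 over the 8 genes and 0.0062 over all tested genes.

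The order of levels was read from FPKM. In WT it ran from Angptl8 through Lipc, Angptl4, Gpihbp1, Angptl6 and Lmf1 to Lpl and Lipg, and the last pair was the only pair of neighbours whose libraries overlapped. In S100a16KO+/- it ran from Lipc through Angptl4 to Angptl8 and Gpihbp1, which overlapped, and on through Angptl6, Lmf1 and Lpl to Lipg. Angptl8 thus moved from above Lipc, at 1.99, 2.02 and 2.09 times its FPKM, to below it, at 0.119, 0.128 and 0.142 times. Lipc and Angptl4 kept their order relative to each other in both genotypes.

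The genes with the pattern nearest to that of Angptl8 were sought among 9042 others by the distance between centred log2(CPM + 1) values over the 6 libraries. They were Inhbe, an activin subunit gene, at a distance of 0.161, Fgf21, a hormone gene, at 0.401, and G0s2, an inhibitor of adipose triglyceride lipase, at 0.668. Inhbe stood at 216.1, 219.5 and 214.2 CPM in WT and at 14.1, 16.3 and 14.9 CPM in S100a16KO+/-, a log2 fold change of -3.84. Fgf21 stood at 119.0, 97.6 and 101.1 CPM in WT and at 7.504, 9.009 and 6.40 CPM in S100a16KO+/-. G0s2 stood at 191.0, 188.6 and 193.4 CPM in WT and at 18.1, 20.1 and 16.6 CPM in S100a16KO+/-. All 3 thus had a level in S100a16KO+/- far below WT with no overlap, and the likeness rests on a single genotype difference over 6 libraries. Nearest to Lipg, among 9043 others, were the tubulin gene Tubb2b (distance 0.177), Gm43609 (0.198) and Nat8f2 (0.226), with log2 fold changes of -1.03, -1.001 and -0.87.

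Members that are made outside hepatocytes were set beside markers of those cells. For each marker list, the share to compare with is that of all tested genes at the adjusted threshold. It was 22.8% called, with 11.6% higher and 11.2% lower. Of 16 liver endothelial markers, 15 were higher and Lyve1 was lower in S100a16KO+/-, with a median of 0.49 on the log2 scale, and their summed level was 468 to 497 CPM in WT and 687 to 719 CPM in S100a16KO+/-. Gpihbp1 amounted to 3.67%, 3.00% and 3.59% of that sum in WT and to 3.92%, 3.18% and 3.34% in S100a16KO+/-. Relative to the endothelial markers the Gpihbp1 groups therefore overlapped. In bulk RNA, a change in the number of cells of a type and a change in RNA per cell cannot be told apart, and the part of the endothelial cells in the Gpihbp1 difference was not tested. Lipg amounted to 1.02%, 0.896% and 1.15% of the endothelial sum in WT and to 0.425%, 0.309% and 0.304% in S100a16KO+/-. With the endothelial sum higher and Lipg lower in every S100a16KO+/- library, these shares had to stay apart. The scale therefore tells nothing more about Lipg than its own level does. Which cells made the Lipg RNA was not tested.

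**Figure D4:**
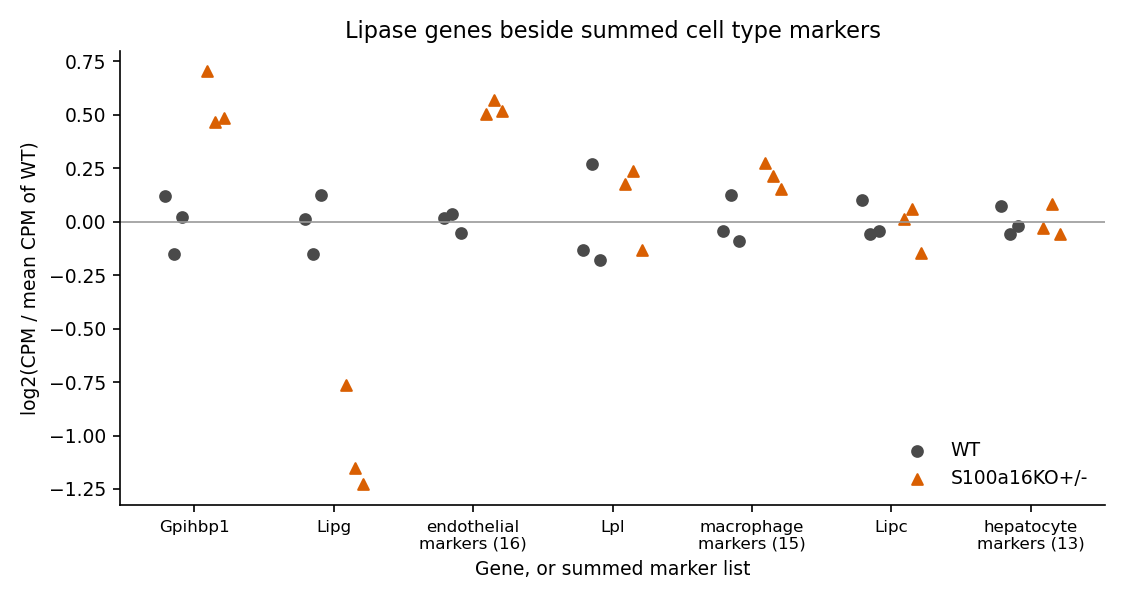
CPM of Gpihbp1, Lipg, Lpl and Lipc and summed CPM of the endothelial (16), macrophage (15) and hepatocyte (13) markers, each as the log2 ratio to its WT mean, with 1 point per library. Gpihbp1 and the endothelial sum lie above the WT libraries in all 3 S100a16KO+/- libraries, Lipg lies below them, and Lpl, Lipc and the hepatocyte sum overlap.

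Lpl is also made by macrophages, stellate cells and adipocytes. Of 15 macrophage markers 6 were called higher at the adjusted threshold, 0 lower and 9 not called, with a median log2 fold change of 0.26. Their sum was 189 to 218 CPM in WT and 223 to 242 CPM in S100a16KO+/-. Of 13 stellate cell markers 8 were called higher, 0 lower and 5 not called, with a median log2 fold change of 0.63. Their sums were 68.9 to 75.5 CPM in WT and 115 to 129 CPM in S100a16KO+/-. Of 8 adipocyte markers 6 were in the table and 3 passed the filter (Fabp4, Plin4 and Cidec), of which 0 were called by edgeR, 1 had an unadjusted p under 0.05 and 0 were called by DESeq2. Their summed level was 6.21 to 8.73 CPM in WT and 9.02 to 10.9 CPM in S100a16KO+/-. The defining adipocyte gene Adipoq was at 0 counts in 5 libraries and at 6 counts in S100a16KO+/- replicate 1, under the limit of 12 counts that stands for 3 fragments. The part of these cells in the Lpl level was not tested.

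The other genes of the 2 families were few. Of 10 further angiopoietin-like and lipase genes, 8 were in the table and 4 passed the filter, with a median log2 fold change of 0.13. Angptl2, a secreted factor of stromal cells, was the 1 gene called, higher, at 0.873 ± 0.201 CPM in WT and 1.60 ± 0.352 CPM in S100a16KO+/- (SD, n = 3 each), with a change of 0.87 on the log2 scale and an adjusted p of 0.0455 by edgeR. It was not called by DESeq2 or without both libraries that stood apart. The stellate cell markers summed to 71.4 ± 3.60 CPM in WT and 120.0 ± 7.58 CPM in S100a16KO+/- (SD, n = 3 each). The part of stromal cells in the Angptl2 difference was not tested. Lipa, the lysosomal acid lipase, stood at 108.8 ± 3.68 and 105.2 ± 6.24 CPM and was not called.

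Cofactors, processing enzymes and receptors of lipases were called in both directions. Of 19 genes, 4 were higher, 5 lower and 10 not called, with a median log2 fold change of -0.01. Beside this list and those that follow, 22.8% of all tested genes were called, with 11.6% higher and 11.2% lower. Sel1l, which helps lipoprotein lipase leave the endoplasmic reticulum, rose from 93.3 ± 2.29 to 174.6 ± 2.33 CPM (log2 fold change 0.90, adjusted p 1.23e-08 by edgeR). Apoa5, an activator of lipoprotein lipase action whose protein ANGPTL complexes with ANGPTL8 are known to oppose, rose from 1655 ± 9.98 to 2983 ± 27.3 CPM (log2 fold change 0.85, adjusted p 2.33e-09 by edgeR). Scarb1, the receptor for high-density lipoprotein, rose by 0.78 on the log2 scale, and Hspg2, a proteoglycan of the vessel wall, rose by 0.42. The endothelial marker sum was higher by 0.53 on the same scale. The part of endothelial cells in the Hspg2 difference was not tested. Vldlr, a receptor for triglyceride-rich particles, fell by 0.54, and the proprotein convertase gene Pcsk7 fell by 0.27. Apoc2, the cofactor lipoprotein lipase requires, stood at 145.5 ± 39.3 and 126.8 ± 18.7 CPM, and Apoc3, an inhibitor, at 1229 ± 35.5 and 1252 ± 25.0 CPM (SD, n = 3 each), and neither was called. Apoa5 thus rose in the same libraries in which Angptl8 was low.

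Of 16 transcription factor genes with known roles in the regulation of these lipases, 1 was higher, 7 lower and 8 not called, with a median log2 fold change of -0.17. Srebf1, the lipogenic factor, fell from 198.9 ± 4.16 to 107.5 ± 2.69 CPM (log2 fold change -0.89, adjusted p 1.45e-08 by edgeR). Pparg, which drives fat storage genes, fell by 0.81, Cebpa by 0.70, the glucocorticoid receptor gene Nr3c1 by 0.46 and Hif1a by 0.29. Nr1h2, which encodes LXR beta, was the 1 gene higher, at 0.31. Ppara, at 47.4 ± 4.26 and 42.5 ± 1.92 CPM, and Mlxipl, which encodes ChREBP, at 305.5 ± 16.3 and 269.9 ± 19.9 CPM, were not called (adjusted p 0.124 and 0.0505 by edgeR).

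Angptl4 is a known target of PPAR alpha, and 20 other targets, Fgf21 among them, were listed beside it. Of these, 2 were higher, 17 lower and 1 not called, with a median log2 fold change of -0.58, while Angptl4 stood at 0.39. Fgf21 fell by 3.80, the acyl-CoA thioesterase gene Acot1 by 1.93, the fatty acid hydroxylase genes Cyp4a14 and Cyp4a10 by 1.09 and 0.94, and the peroxisomal genes Acaa1b and Ehhadh by 0.92 and 0.90. The Cyp4a genes are close copies, so their counts may be split between them. The 2 that rose, named after their values were seen, were Pdk4 (log2 fold change 0.89, adjusted p 3.28e-04 by edgeR), which holds back glucose oxidation, and Cpt1a (0.44, adjusted p 1.74e-05 by edgeR), the gate of mitochondrial fatty acid entry. Angptl4 thus moved in the direction of Pdk4 and Cpt1a and against the other called targets.

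Angptl8 is known to rise with insulin and carbohydrate. Of 17 other genes induced by them, 6 were higher, 7 lower and 4 not called, with a median log2 fold change of -0.03. Fasn, the fatty acid synthase, fell from 296.6 ± 6.08 to 99.8 ± 7.61 CPM (log2 fold change -1.57, adjusted p 2.12e-10 by edgeR). Thrsp, a lipogenic regulator, fell by 1.13 and Gpd1 by 0.73. Txnip, which responds to glucose, rose by 0.88, and the lipogenic genes Me1 and Scd1 rose by 0.44 and 0.43. The log2 fold change of Angptl8 was lower than that of every gene of this list.

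Of 15 genes induced by fasting, 10 were higher, 3 lower and 2 not called, with a median log2 fold change of 0.44. Irs2, an insulin receptor substrate, rose from 29.4 ± 2.12 to 120.2 ± 2.09 CPM (log2 fold change 2.03, adjusted p 1.66e-11 by edgeR). Ppargc1a, a coactivator of gluconeogenesis, rose by 1.96 on the log2 scale, Pck1, its rate-controlling enzyme, by 1.36, the serine dehydratase gene Sds by 1.14 and Igfbp1 by 0.75. Among the lower genes, named after their values were seen, were Trib1 (-0.55) and Creb3l3 (-0.25). Angptl4, at 0.39, lay close to the median of this list, to which Pdk4 and Cpt1a also belong.

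**Figure D5:**
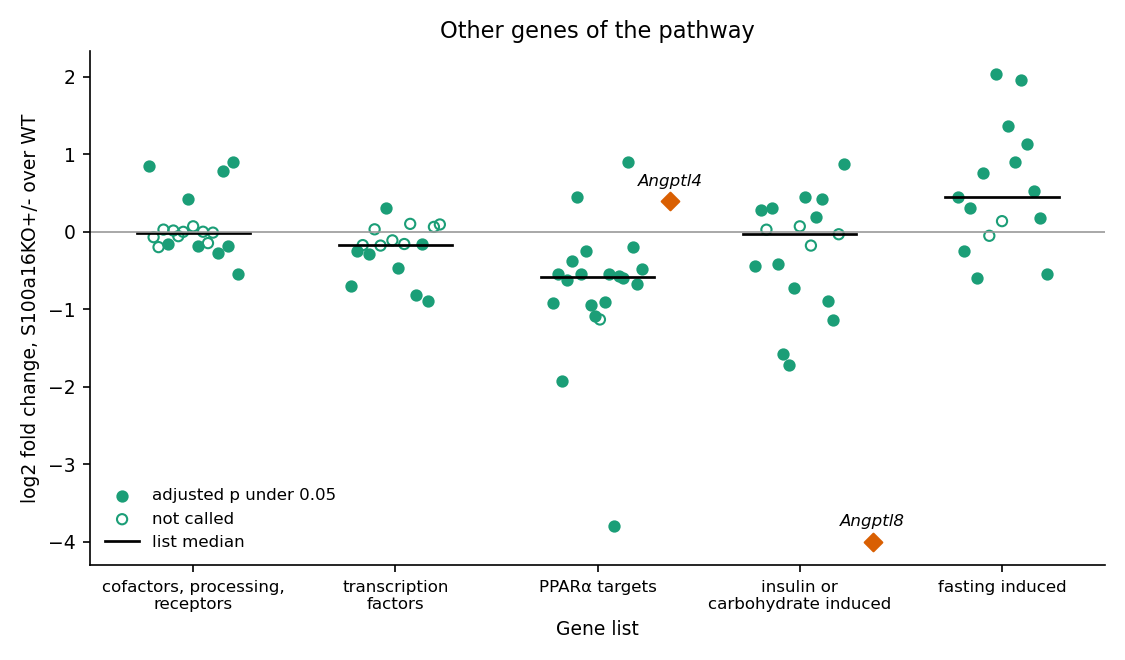
Log2 fold change of S100a16KO+/- over WT for the tested genes of 5 lists, 1 point per gene, filled where the adjusted p was under 0.05, with a bar at each list median and diamonds for Angptl4 and Angptl8. The medians are -0.58 for the PPAR alpha targets, 0.44 for the genes induced by fasting and -0.03 for those induced by insulin and carbohydrate, and Angptl4 and Angptl8 lie at 0.39 and -4.00.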

How the data were processed

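Poly(A) RNA of 6 libraries was sequenced from paired ends with a strand-marking (dUTP) kit and molecular identifiers. The submitters' processing notes name cutadapt 1.9, HISAT2 2.0.4, UMI-tools, StringTie 1.3.4d, DESeq2, edgeR and the build mm10, and the strand setting used for counting is not given in the sources used here. The authors deposited 1 table with an estimated count per gene and library, not scaled for depth, and an FPKM value, scaled by the authors for transcript length and depth. The low counts came in steps of about 4, so a fragment was taken as 4 counts and the limit for a count of 0 as 12 counts.

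Estimated counts were rounded, scaled by TMM and filtered with filterByExpr, and tested with edgeR 4.0.16 in R 4.3.3 (quasi-likelihood F test, two-sided, no covariates, Benjamini-Hochberg adjustment over 15957 genes). Each library was taken as 1 replicate. The 8 genes and the gene lists were chosen with earlier results of these data known. Named were the 8 genes, S100a16, up to 6 genes per list by size of change among those called, some defining markers, and the 3 nearest patterns of Angptl8 and Lipg among genes of mean FPKM of at least 1, and Dock6, Shfl, Lipa, Apoc2, Apoc3, Ppara, Mlxipl, Me1, Scd1, Adipoq, Lyve1 and the exceptions noted in the text were added after their values were seen. Alternatives were DESeq2 1.42.0, limma 3.58.1 (voom, and log2(FPKM + 1) or log2(FPKM + 0.1)), other scalings and filters, a replicate block and leaving out libraries. Only the edgeR fit was tested on simulated data. Leaving out WT replicate 1 and S100a16KO+/- replicate 2 together was chosen after seeing the data. Promoter windows came from RefSeq (GRCm38.p6). Of 25718 gene identifiers 25655 were found in GENCODE M21, 89.68% of them with the same coordinates. Some genes of the lists are counted in them and not reported here by name.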

Additional observations from a re-analysis of the deposited data

How the results depend on the processing

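Over all alternatives, 248 of 291 recomputed counts of calls stayed within 1.5 times the reported count, and no log2 fold change of the 8 genes that passed the adjusted threshold changed direction. Fits of limma to log2(FPKM + 1) and log2(FPKM + 0.1), where only genes of mean FPKM of at least 1 were kept, called 2228 and 2208 genes against 3643 at the adjusted threshold and 131 and 240 against 721 by the criterion of the study. In both, 1 of the 8 genes met that criterion. Called were 4 cofactor genes, 4 stellate cell markers, 0 other family genes and 0 bile duct markers. The FPKM filter had removed some genes called in the edgeR fit of all libraries, so they were not tested there. Among them were Lipg, Angptl2, Vldlr, Sox9 and the stellate cell markers Lrat, Reln, Hand2 and Hgf. With edgeR on genes of mean FPKM of at least 1 the criterion took 264 genes and 1 of the 8, since the filter removed Lipg, and it left 0 other family genes, 4 stellate cell markers and 0 bile duct markers called. A fold limit of 1.5 gave 1806 genes. DESeq2 and voom called 0 other family genes, DESeq2 called 8 hepatocyte markers against 5, and counts divided by 4 called 2 bile duct markers against 1. Without WT replicate 1 and S100a16KO+/- replicate 2 the criterion took 1 of the 8 genes, 0 other family genes were called and 8 hepatocyte markers were called.

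Leaving out 1 library at a time gave 2734 to 3302 genes at the adjusted threshold, 759 to 823 by the criterion, 4 to 6 of the 8 genes at the adjusted threshold and 1 to 2 by the criterion. The lists ranged from 0 to 1 called for the other family genes, 5 to 8 for the cofactors, 5 to 7 for the transcription factors, 0 to 1 for the adipocyte markers and 3 to 6 for the hepatocyte markers. The cofactors were at 5 without WT replicate 2 and without S100a16KO+/- replicate 3, the transcription factors at 5 without WT replicate 3 and without S100a16KO+/- replicate 3, and the hepatocyte markers at 3 without WT replicate 3. Angptl2 was called with S100a16KO+/- replicate 1 left out and in no other such fit, and 1 adipocyte marker was called without WT replicate 1 or without S100a16KO+/- replicate 3.

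The deviations of same-numbered libraries from their group means correlated at -0.0081, -0.017 and -0.0087, so no pairing by replicate number was seen. Libraries of different numbers were not compared in this way, so these values cannot exclude a pairing. With the number as a replicate block, 3082 genes passed the adjusted threshold and 711 the criterion, 4 of the 8 genes were called without Angptl6, 2 met the criterion, and 0 other family genes were called. Low counts limit the values of Lipg, Angptl6 and Angptl2, and the causes of these differences were not tested where no filter or left-out library shows them.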

Other observations

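Of 12 markers of red cells, platelets and lymphoid cells, 10 were in the table and 9 passed the filter, with 3 lower, 0 higher and 6 not called by edgeR. The haemoglobin genes Hba-a1 and Hba-a2 had log2 fold changes of -3.53 and -3.57, and their counts can be split between these near-identical copies. Alas2, the heme synthesis gene of red cells, fell by 0.70 on the log2 scale. The summed level of these markers was 112 to 140 CPM in WT and 21.9 to 25.3 CPM in S100a16KO+/-. Hba-a1 and Hba-a2 made up most of this sum in WT, with means of 67.3 and 45.1 CPM. The 3 red cell genes were thus lower in the libraries in which the endothelial and stellate cell markers were higher. Among the 6 genes not called, Pf4, Nkg7, Cd79a and Ptprc had higher means in S100a16KO+/-, and Cd3e and Ms4a1 had lower means. Of 7 bile duct cell markers, 5 passed the filter and Sox9 was the 1 gene called, lower, with sums of 14.39 to 18.99 CPM in WT and 12.3 to 14.8 CPM in S100a16KO+/-. Of 13 hepatocyte markers 3 were higher, 2 lower and 8 not called, with a median log2 fold change of 0.05. Beside these 3 lists, 22.8% of all tested genes were called, with 11.6% higher and 11.2% lower.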
